A study of Mus musculus with 28 samples.

Results

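The EGF receptor family of the mouse has 4 members, Egfr, Erbb2, Erbb3 and Erbb4, and these 4 gene rows, taken by their symbols from 17690 in all, are described here across single cells of the adult subependymal zone (SEZ), the strip of brain along the lateral ventricles in which neurons are still made. Cells had been sorted in 7 ways, each giving 4 libraries of 96 wells, and their polyadenylated RNA was read by SORT-seq, which joins cell sorting into plates with the CEL-seq protocol. All mice were Bl/6. Troy-GFP cells were GFP+ cells of Troy-GFPiresCreER +/ki mice, a reporter of Tnfrsf19 with which the study finds neural stem cells (NSCs), and Ki67-RFP cells were RFP+ cells of Ki67-tagRFP ki/ki mice, a reporter of the proliferation gene Mki67. The day-2 tdTomato and day-60 tdTomato sorts used Ki67-iresCreER +/ki, Rosa-tdTomato +/ki mice given 5 mg of tamoxifen once, in which cells that transcribe Mki67 at that time, and all their later progeny, carry tdTomato; they were taken 2 or 60 days afterwards. The mixed day-60 sort held tdTomato+ cells of the SEZ or the olfactory bulb from such mice, together with O4+ oligodendrocytes. GLAST/EGF cells were taken by an antibody to GLAST, an astrocyte and NSC protein, and/or by binding of EGF coupled to Alexa647, and Prom1/CD24 cells by antibodies to PROM1 (CD133) and CD24. The mice were 8 to 10 weeks old, except in the day-60 sort (16 to 19 weeks) and the mixed day-60 sort (8 to 19 weeks). No label says how many mice stand behind a library, and the p-values may then reflect technical spread alone.

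Wells with at least 1000 transcripts were kept as cells, 1789 of 2688, with 11 to 89 cells per library, and a cell held a median of 3817 to 6218 transcripts, depending on the sort. The study's own text gives about 1500 good cells out of about 2500. Library sums ran from 43149 to 572793 transcripts, lowest in Prom1/CD24, where spike-in RNA took 44.3% to 56.8% of transcripts against at most 17.7% elsewhere. Troy-GFP and GLAST/EGF libraries carried Y-linked RNA (396 ± 13 and 322 ± 30.8 CPM, transcripts per 1000000 of the library, over 4 genes) and the other 5 sorts had 0, so sex cannot be told apart from sort wherever one of these 2 sorts is set against another. Of the 8 libraries of Troy-GFP and GLAST/EGF, 4 were read on another flow cell than the rest, and for the day-2 libraries no flow cell is named, so there batch and group cannot be told apart.

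The 4 receptors are single-pass membrane tyrosine kinases that work as pairs. EGF, TGF-alpha, HB-EGF and related ligands bind Egfr, the neuregulins bind Erbb3 and Erbb4, and a few ligands such as HB-EGF bind Erbb4 as well. Erbb2 binds no known ligand and serves as the favoured partner of the other members, whereas the kinase of Erbb3 is nearly inactive and needs a partner. Active pairs recruit Grb2, Sos and Shc adaptors to Ras and the MAP kinases, and PI3 kinase to Akt. In the SEZ, Egfr is known from activated stem cells and transit-amplifying progenitors, which divide in response to EGF, Erbb4 from migrating neuroblasts and interneurons, and Erbb3 from the oligodendrocyte and Schwann cell lineages.

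By the annotation of mm10, Egfr (ENSMUSG00000020122.16) lies on the plus strand of chromosome 11 at 16752203 to 16918158, and Erbb2 (ENSMUSG00000062312.5) on the same strand and chromosome at 98412470 to 98437716. Erbb3 (ENSMUSG00000018166.8) lies on the minus strand of chromosome 10 at 128567523 to 128589652, and Erbb4 (ENSMUSG00000062209.15) on the minus strand of chromosome 1 at 68032186 to 69108059. The 250 bases before the RefSeq start of the 3 members with an entry are shown because their RNA levels differ so widely between the cells described next; capitals mark a GC box (GGGCGG, here as its reverse complement) or an E box (CANNTG), each searched on both strands, and no marked stretches overlap. The windows, in GRCm38.p6, are chr11:16751953-16752202 (plus strand) for Egfr, chr11:98412234-98412483 (plus strand) for Erbb2 and chr1:69108060-69108309 (minus strand) for Erbb4, each written 5′ to 3′.
Egfr: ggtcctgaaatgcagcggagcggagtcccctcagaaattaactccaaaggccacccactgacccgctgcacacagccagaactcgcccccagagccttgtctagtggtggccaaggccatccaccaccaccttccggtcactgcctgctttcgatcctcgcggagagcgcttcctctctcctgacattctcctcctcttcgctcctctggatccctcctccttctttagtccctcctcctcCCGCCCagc
Erbb2: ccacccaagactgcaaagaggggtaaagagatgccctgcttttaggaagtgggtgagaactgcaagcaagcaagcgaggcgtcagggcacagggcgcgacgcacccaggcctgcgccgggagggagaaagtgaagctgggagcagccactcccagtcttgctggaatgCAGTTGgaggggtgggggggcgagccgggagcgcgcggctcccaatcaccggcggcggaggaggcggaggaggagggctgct
Erbb4: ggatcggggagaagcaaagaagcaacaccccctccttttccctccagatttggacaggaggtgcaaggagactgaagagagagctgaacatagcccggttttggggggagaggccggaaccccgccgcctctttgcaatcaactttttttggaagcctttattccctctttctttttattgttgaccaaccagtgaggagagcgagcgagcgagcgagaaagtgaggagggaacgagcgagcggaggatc
The Egfr window held 1 GC box, its first base 9 bases before the start, and no E box. The Erbb2 window held 1 E box, 82 bases before the start, and no GC box, and the Erbb4 window held neither. Of 32851 such windows in RefSeq, 32.7% held a GC box and 66.2% an E box. The G and C content was 60.8%, 66% and 54% for Egfr, Erbb2 and Erbb4, against a median of 52.4% over all windows. These matches describe letters in the sequence; no binding was measured.

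Egfr was by far the best measured member, with 1550 transcripts in 522 of the 1789 cells, and its RNA was highest in the sort that selects for its ligand. The GLAST/EGF libraries held 458, 368, 326 and 352 CPM (mean 376 ± 57.4, SD, n = 4). Since those cells were taken in part because they bound EGF, this level is a check of the sort and not a finding. Troy-GFP libraries held 205, 193, 159 and 225 CPM (196 ± 27.8), all below every GLAST/EGF library and above every library of the remaining sorts. Day-60 tdTomato libraries held 86.6, 113, 89.4 and 128 CPM (104 ± 19.8), Ki67-RFP libraries 79.1, 97.4, 113 and 109 (99.6 ± 15.1) and day-2 tdTomato libraries 39.7, 93.4, 84 and 104 (80.3 ± 28.3). The ranges of these 3 sorts overlapped, with day-2 library 1 standing lowest. Prom1/CD24 libraries held 23.2, 124, 0 and 51 CPM (49.6 ± 53.9), a spread as wide as their mean, and mixed day-60 libraries 6.38, 9.56, 5.27 and 15.1 (9.08 ± 4.41). Only the first 2 steps in this order, GLAST/EGF to Troy-GFP and Troy-GFP to day-60 tdTomato, separated neighbours without overlap.

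**Figure D1:**
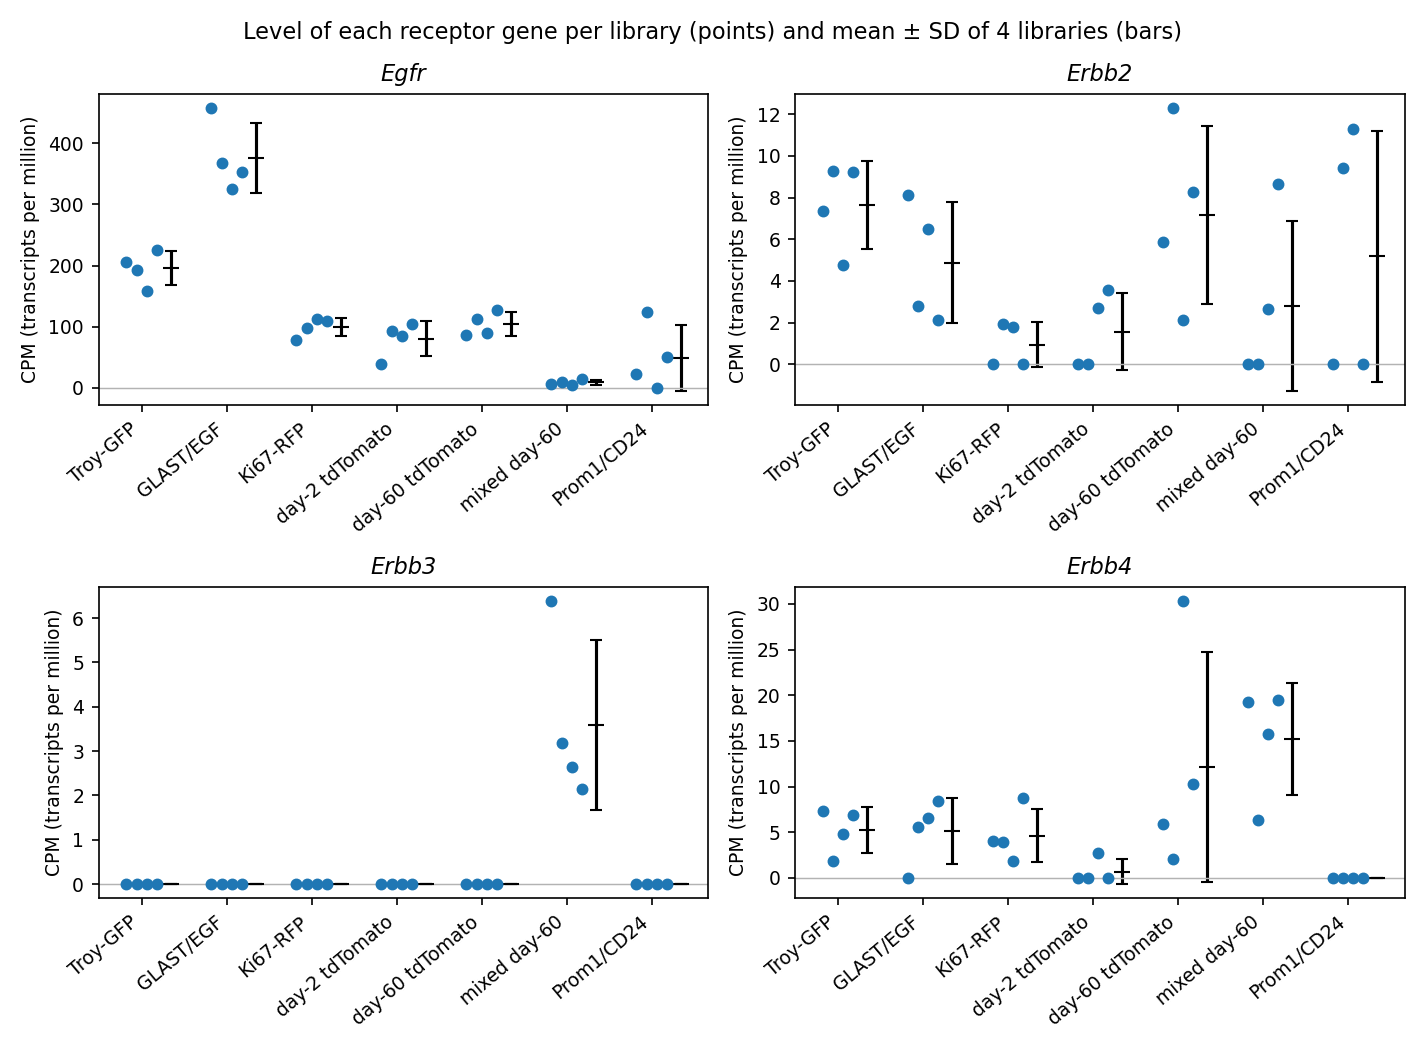
Level of each EGF receptor family member in every library, in transcripts per 1000000 (CPM, linear axis, 1 panel per gene with its own scale); points are the 4 libraries of a sort, and the bar is their mean ± SD. Egfr was between 326 and 458 CPM in GLAST/EGF, between 159 and 225 in Troy-GFP and at most 15.1 in mixed day-60 libraries, whereas Erbb3 was above 0 in the mixed day-60 sort alone.

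Library sums mix cell classes, so in the comparisons of whole sorts a change in the share of a class and a change of RNA within its cells cannot be told apart. Dividing cells were set against the stem-cell sort first. Egfr fell from Troy-GFP to Ki67-RFP by 1.09 on the log2 scale (SE 0.16, 2.13-fold lower, adjusted p = 1.6e-06), and every Ki67-RFP library lay below every Troy-GFP library. In this comparison 59.6% of the 8396 tested genes passed. Within the flow cell that both sorts share the difference was -1.05 ± 0.20 (adjusted p = 9.7e-05). Summed NSC marker RNA was 33260 to 34226 CPM in Troy-GFP and 1412 to 2073 in Ki67-RFP, and summed neuroblast marker RNA reached 9902 to 11919 in Ki67-RFP; the part of these cell classes in the difference was not tested at this level.

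Among progeny of cells labelled by Mki67 activity, Egfr was 0.60 ± 0.25 higher on the log2 scale at day 60 than at day 2 (1.51-fold, adjusted p = 0.041), in a comparison in which 67.6% of 7648 genes passed. The libraries overlapped, at 86.6 to 128 against 39.7 to 104 CPM. The call was lost without day-2 library 1 (0.29), 2 (0.62) or 3 (0.63) and without day-60 library 2 (0.55) or 4 (0.49). By the cell classes described below, NSC-like cells made up 82.8% of day-60 and 2.48% of day-2 cells. Neuroblast-like cells made up 0.562% and 89.4% (means over 4 libraries). Day-60 mice were also older, at 16 to 19 against 8 to 10 weeks, and no flow cell is named for day 2. Class mix, age, batch and day cannot be told apart here. From Ki67-RFP to day-2 tdTomato, where 28.5% of 6952 genes passed, Egfr differed by -0.36 ± 0.23 (adjusted p = 0.24) and did not pass.

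The 2 sorts richest in Egfr also differed from each other. Egfr was 0.85 ± 0.15 higher on the log2 scale in GLAST/EGF than in Troy-GFP (1.81-fold, adjusted p = 0.00016; 30.4% of 7818 genes passed), at 1.04 (adjusted p = 0.0050) and 0.68 (adjusted p = 0.019) within the 2 flow cells. Against Ki67-RFP, with 36% of 7798 genes passing, it was 1.90 ± 0.15 higher in GLAST/EGF (3.72-fold, adjusted p = 4.8e-10). Progenitor-like cells, described next, made up 29% ± 7.52 of GLAST/EGF cells, 16.6% ± 5.62 of Ki67-RFP cells and 10.8% ± 4.89 of Troy-GFP cells (SD over 4 libraries). Both differences have the same limit as the level itself, that the receptor's ligand was used in the sort.

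Egfr fell in both remaining comparisons. From day-60 tdTomato to the mixed day-60 sort it fell by 3.54 on the log2 scale (SE 0.49, 11.6-fold lower, adjusted p = 1.9e-05; 43.3% of 8152 genes passed), with no overlap of libraries. The mixed sort's oligodendrocyte marker RNA summed to 40798 to 45442 CPM, against 652 to 2612 in the day-60 sort, and its mature neuron marker RNA to 6148 to 8341, against 803 to 1783. From Troy-GFP to Prom1/CD24 it fell by 2.39 (SE 0.63, 5.26-fold lower, adjusted p = 0.012; 26% of 5680 genes passed), also with no overlap. Within the shared flow cell, with 2 Troy-GFP libraries left, that difference was -2.45 and no longer passed (adjusted p = 0.066).

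**Figure D2:**
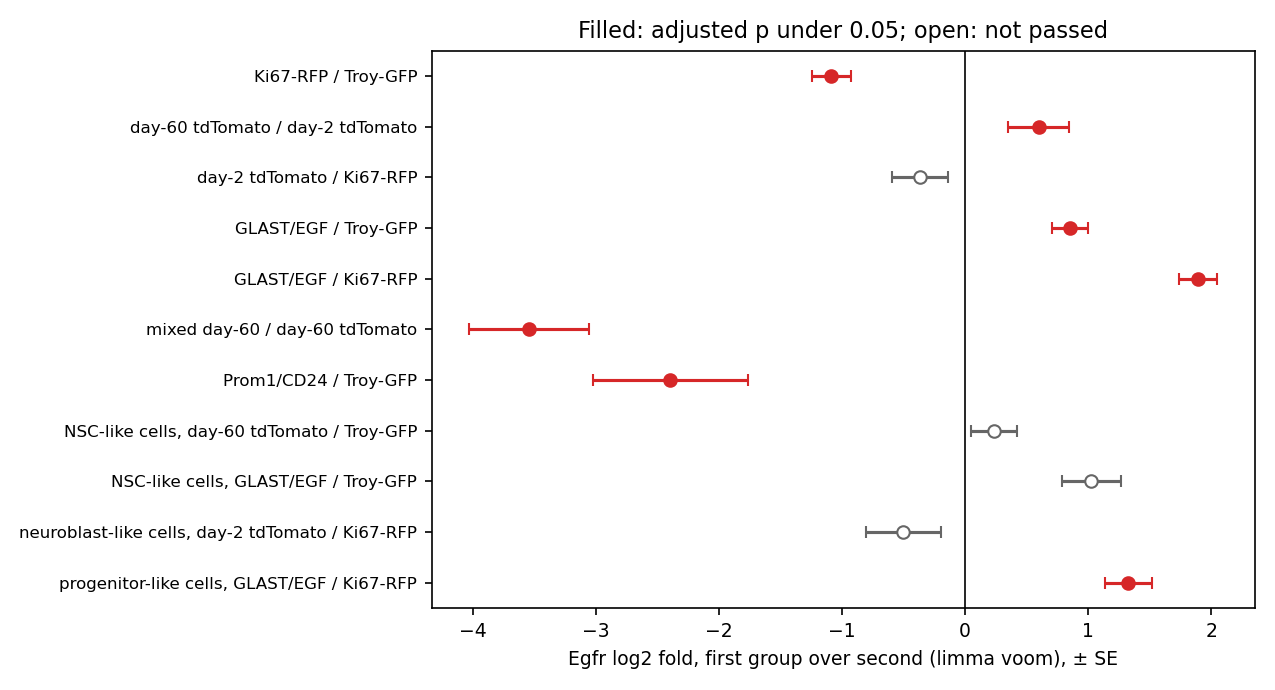
Egfr log2 fold change (first group minus second) in the 11 comparisons; points are limma estimates, bars their standard errors, and filled points have an adjusted p under 0.05. The largest fall, -3.54, was in mixed day-60 against day-60 tdTomato, and the largest rise, 1.90, in GLAST/EGF against Ki67-RFP.

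Cells were clustered without the 4 receptor genes, and clusters were named from marker lists, so that Egfr could be read by cell class; these class levels are given as description. Progenitor-like cells, which formed 1 cluster, held 52.7% of all Egfr transcripts in 9.17% of the cells. In these cells GLAST/EGF libraries had 833, 729, 560 and 639 CPM (690 ± 118) and Troy-GFP libraries 500, 697, 532 and 645 (594 ± 93.2). Ki67-RFP libraries had 239, 266, 255 and 319 CPM (270 ± 34.8). Progenitor-like cells of Ki67-RFP thus lay below those of both other sorts in every library. Their summed NSC marker RNA was also lower, at 3160 to 4190 CPM per library against 4203 to 10139 in Troy-GFP and 6021 to 9048 in GLAST/EGF (all 15 genes found in each sort). Their neuroblast marker RNA was 3505 to 4438 CPM (16 of 16 genes found) against 1824 to 3473 (13 of 16, with Dlx5, Dlx6os1 and Dlx1as at 0) and 1631 to 3568 (15 of 16, with Dlx5 at 0). Progenitor marker RNA overlapped between the 3 sorts, at 3650 to 5767 CPM in all. The part of these classes' RNA in the Egfr difference was not tested. The 10 progenitor-like day-2 cells held 603 CPM as a pool, and day-60 and mixed day-60 libraries had none of these cells. Haemoglobin RNA led the cluster by fold, but it came from 1 Prom1/CD24 cell. The cluster was named from 3 progenitor markers, the minimum. Summed progenitor marker RNA was not lower in neuroblast-like cells, at 5241 to 6026 CPM in GLAST/EGF and 4334 to 5068 in Ki67-RFP libraries. That sum therefore does not set the progenitor-like class apart from them.

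NSC-like cells, a class that astrocytes would also join by its markers, held 28% of Egfr transcripts in 36.9% of the cells. Troy-GFP libraries had 108, 106, 109 and 96.1 CPM in these cells (105 ± 6.04) and day-60 tdTomato libraries 112, 120, 112 and 150 (123 ± 17.9). GLAST/EGF libraries had 188, 175, 138 and 352 CPM (213 ± 94.9), all above the Troy-GFP libraries and library 4 far above its own group. Mixed day-60 libraries 2 to 4 had 88.7, 63.7 and 77.5 CPM (76.6 ± 12.5). Within each of the 8 libraries that held at least 5 cells of both classes, Egfr was lower in NSC-like than in progenitor-like cells.

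Neuroblast-like cells held 17.1% of Egfr transcripts in 28.9% of the cells. Of these 266 transcripts, 170 lay in a cluster led by Top2a. That cluster was named from 3 neuroblast markers, the minimum, with 0 of them among its highest genes by fold, so its class is less sure. Levels of the class were 47.9, 77.6, 55.3 and 56.7 CPM in Ki67-RFP libraries (59.4 ± 12.7) and 29.95, 23.8, 60.7 and 50.9 in day-2 libraries (41.3 ± 17.4). In GLAST/EGF they were higher, at 168, 243, 121 and 116 CPM (162 ± 59), with no overlap with either sort. Those cells were taken in part for binding EGF, and the class was spread over its clusters in other shares there. The part of either in the level was not tested. Of the 40 GLAST/EGF cells, 22 were in the cluster led by Top2a and 17 in that led by Ccnd2, against 91 and 63 of 250 in Ki67-RFP and 29 and 14 of 197 at day 2. They lay below progenitor-like cells in 8 of 8 libraries with both, and below NSC-like cells in 3 of 5.

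**Figure D3:**
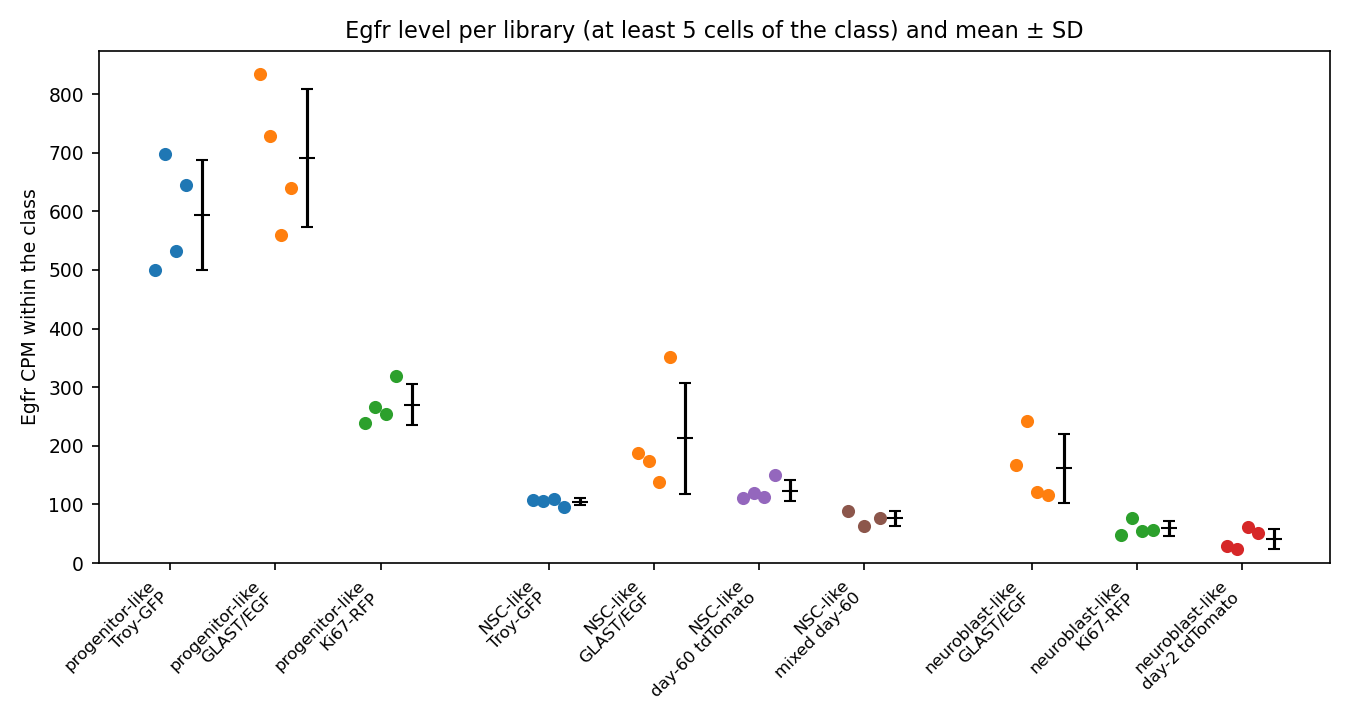
Egfr level in CPM (linear axis) in progenitor-like, NSC-like and neuroblast-like cells, by sort; each point is 1 library with at least 5 cells of that class, bars are mean ± SD. Progenitor-like cells stood at 239 to 833 CPM, above the NSC-like and neuroblast-like cells of the same library in 8 of 8 cases each.

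By detection in single cells the order was the same. At least 1 Egfr transcript was found in 137 of 164 progenitor-like cells (83.5%, exact 95% interval 77% to 88.9%), 255 of 660 NSC-like cells (38.6%, 34.9% to 42.5%) and 114 of 517 neuroblast-like cells (22.1%, 18.5% to 25.9%). Progenitor-like cells were deeper, with a median of 8842 transcripts against 4984 and 5443. With every cell thinned to 1000 transcripts the shares were 36%, 11.8% and 4.45%. Oligodendrocyte-like cells had Egfr in 0 of 142 cells at a median depth of 4995, and oligodendrocyte precursor-like cells in 0 of 23. By the limit of 3 cells these counts allow shares with a transcript of up to 2.11% and 13%, and the exact 95% intervals end at 2.56% and 14.8%. Of these cells 125 and 17 came from the mixed day-60 sort, where Egfr was at 9.08 CPM. They therefore give no level for stray RNA in the sorts rich in Egfr. Endothelial-like cells of Troy-GFP had Egfr in 3 of 9 cells of library 1 and in 0 cells of libraries 2, 3 and 4. The highest single cell, a progenitor-like cell of GLAST/EGF library 1, held 23 Egfr transcripts.

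**Figure D4:**
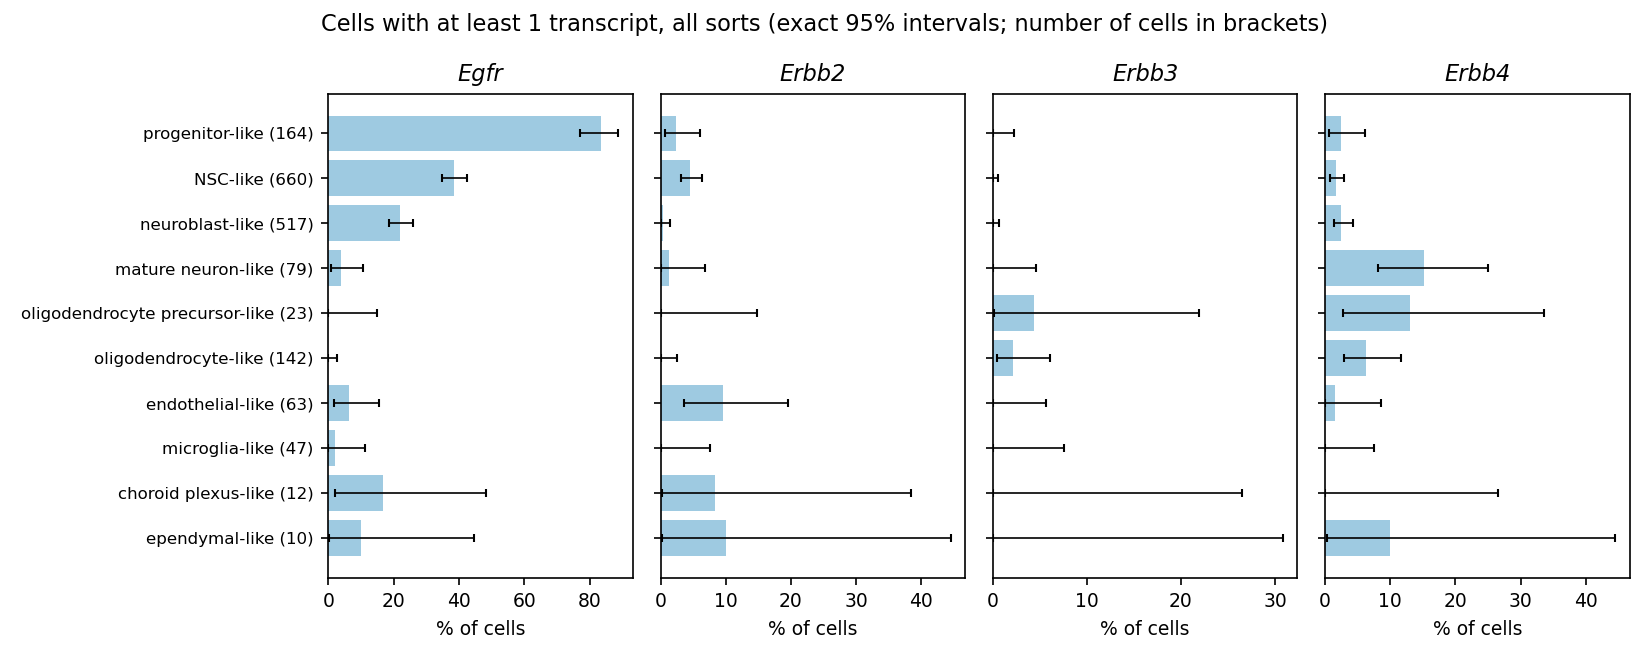
Share of cells with at least 1 transcript (percent, linear axis) by cell class over all sorts. Bars are shares and thin lines exact 95% binomial intervals, which cover counting error only. Egfr reached 83.5% of progenitor-like cells and 0 of 142 oligodendrocyte-like cells.

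The clusters inside a class were not alike. Among neuroblast-like cells, Egfr was at 105 CPM in a cluster led by the mitotic gene Top2a and at 99.2 in one led by Ccnd2 and Sox11, but at 16.5 in the cluster led by Nrep and the tubulin regulator gene Stmn2. A further cluster, led by Stmn1 and Racgap1 with the mitotic genes Ube2c and Tacc3 high, stood at 22.3 CPM, so Egfr was not high in every cluster with mitotic genes. Of the day-2 neuroblast-like cells, 124 of 197 lay in the Stmn2 cluster, against 47 of 250 in Ki67-RFP. Splitting neuroblast-like cells by the presence of an Mki67 or Top2a transcript, a choice made after their values were seen, gave 84.6 CPM in 374 cells with one and 24 CPM in 143 cells without. The level was higher with than without in 7 of 8 libraries, at 62.3 ± 12.1 against 23.9 ± 19.3 CPM in Ki67-RFP and 48.4 ± 33.6 against 20.9 ± 24 in day-2 libraries. Cells with a mitotic transcript were also deeper, with a median of 7138 against 2886 transcripts. With cells thinned to 1000 transcripts the share with Egfr was 3.72% with and 5.71% without a mitotic transcript in Ki67-RFP, against 23.7% and 8.57% unthinned. In day-2 cells the thinned shares were 1.02% and 1.01%, against 20.4% and 5.05%. These rest on few cells, and no difference within either sort could be seen at equal depth.

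In NSC-like cells the split gave 123.5 CPM with and 126.4 without. In progenitor-like cells the sorts did not go 1 way, at 555 CPM with and 802 without in Troy-GFP (9 cells without), 668 and 708 in GLAST/EGF, but 275 and 227 in Ki67-RFP (8 cells without).

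Fits within a class compared sorts under 1 class name. As for whole sorts, GLAST/EGF cells were taken in part for binding EGF, so a higher Egfr there is partly set by the sort in these fits too. In progenitor-like cells Egfr was 1.33 ± 0.19 higher on the log2 scale in GLAST/EGF than in Ki67-RFP (2.51-fold, adjusted p = 0.00019), where 10.3% of 3024 genes passed, with 12 to 20 and 8 to 18 cells per library. Between the same cells the libraries did not overlap in the NSC marker RNA given above, but did in neuroblast marker RNA. They also overlapped in oligodendrocyte precursor marker RNA, at 40.6 to 299 CPM in GLAST/EGF (7 of 12 genes found) and 17.1 to 99.2 in Ki67-RFP (5 of 12), both with Gpr17 and Bcas1 at 0. None of these sums was tested. In NSC-like cells Egfr differed by 1.03 ± 0.24 between GLAST/EGF and Troy-GFP. There 0% of 4388 genes passed by limma after adjustment and 324 had an unadjusted p under 0.05; for Egfr the adjusted p was 0.13 and the unadjusted p 0.000149. No other tool was run, and the libraries did not overlap.

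One NSC-like cluster of 34 cells was led by the gut genes Lypd8, Adh1 and Reg1 and came from Troy-GFP (24 cells) and GLAST/EGF (10 cells, 8 of them of library 4). Without it, an alternative chosen after the data were seen, the NSC-like GLAST/EGF mean was 199 ± 60.3 CPM and the log2 difference 0.93 ± 0.23 (adjusted p = 0.14). NSC-like cells at day 60 differed from those of Troy-GFP by 0.23 ± 0.19 (adjusted p = 0.60; 2.77% of 6425 genes passed). Its direction was not stable, at -0.30 with a minimum of 500 transcripts per cell, -0.22 with 2000 and -0.25 at clustering resolution 0.5. Neuroblast-like cells at day 2 differed from those of Ki67-RFP by -0.50 ± 0.31 (adjusted p = 0.22; 29.2% of 6108 genes passed). Most day-2 cells of this class lie in the Stmn2 cluster and most Ki67-RFP cells in the Top2a and Ccnd2 clusters.

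Erbb2, the partner receptor without a ligand of its own, was near the limit of detection, with 48.1 transcripts in 47 cells and none in 8 of 28 libraries. Troy-GFP libraries had 7.37, 9.27, 4.79 and 9.21 CPM (7.66 ± 2.11) and Ki67-RFP libraries 0, 1.94, 1.81 and 0 (0.936 ± 1.08). GLAST/EGF libraries had 8.13, 2.78, 6.50 and 2.11 CPM (4.88 ± 2.90). Both lay above Ki67-RFP in every library. The exact 2-sided permutation test gave p = 0.0286 for each of these differences, the smallest that 4 against 4 libraries allow, and 0.164 after adjustment over the 23 tests of Erbb2, Erbb3 and Erbb4, so neither passed.

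Day-60 tdTomato libraries had 5.89, 12.3, 2.12 and 8.24 CPM of Erbb2 (7.14 ± 4.27) and day-2 libraries 0, 0, 2.69 and 3.55 (1.56 ± 1.84; exact p = 0.0857, adjusted 0.246). Prom1/CD24 and mixed day-60 libraries averaged 5.18 ± 6.03 and 2.82 ± 4.07 CPM, each with 2 libraries at 0, and neighbours in the order of the 7 sorts all overlapped. By class, NSC-like cells held 64.6% of the transcripts, in 30 of 660 cells (9.03 CPM as a pool), and endothelial-like cells stood at 23.1 CPM in 6 of 63 cells. Of those 6 transcripts, 5 came from Troy-GFP libraries 1 and 2, and without library 2 the level was 13.2 CPM, below the 14.9 of ependymal-like cells (1 transcript in 10 cells). Neuroblast-like cells had 2 transcripts in 517 cells (0.578 CPM) and progenitor-like cells 4 in 164. Oligodendrocyte-like cells had none in 142.

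Erbb3, the neuregulin receptor with little kinase activity, was found in the mixed day-60 sort alone, which is also the only sort that selected oligodendrocytes. Its libraries held 6.38, 3.19, 2.63 and 2.15 CPM (3.59 ± 1.91), and the 24 libraries of the other sorts held none, a count that allows up to 1.40 CPM in Ki67-RFP, 1.53 in day-60 tdTomato, 1.55 in Troy-GFP, 1.80 in GLAST/EGF, 2.55 in day-2 tdTomato and 8.90 in Prom1/CD24. The 6 transcripts came from 6 cells, of which 3 were oligodendrocyte-like, 1 oligodendrocyte precursor-like and 2 of an unnamed cluster led by Dcn, Vtn and Npy. Against day-60 tdTomato the exact p was 0.0286 and the adjusted p 0.164. With 6 transcripts in all, no finer statement on its cell types is possible.

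Erbb4, the neuregulin receptor of interneurons, gave 79.5 transcripts in 54 cells. Mixed day-60 libraries had 19.2, 6.37, 15.8 and 19.5 CPM (15.2 ± 6.12) and day-60 tdTomato libraries 5.90, 2.05, 30.3 and 10.3 (12.1 ± 12.6). Of the 14.3 transcripts in day-60 library 3, 12.3 came from 1 mature neuron-like cell, without which that library stood at 4.34 CPM. Troy-GFP (5.23 ± 2.52), GLAST/EGF (5.13 ± 3.62) and Ki67-RFP (4.62 ± 2.93) could not be separated. Day-2 libraries had 0, 0, 2.69 and 0 CPM (0.674 ± 1.35), and Prom1/CD24 libraries none, which allows up to 8.90.

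No Erbb4 difference passed. The exact p was 0.0286 for Prom1/CD24 against Troy-GFP (adjusted 0.164) and 0.0571 for day 60 against day 2, for day 2 against Ki67-RFP and for neuroblast-like cells of day 2 against those of Ki67-RFP (0.795 against 5.88 CPM), each 0.188 after adjustment. By class, mature neuron-like cells stood at 55 CPM in 12 of 79 cells, which were 4.42% of the cells and held 38.2% of the transcripts. Without the 1 day-60 cell with 12.3 transcripts they stood at 33.3 CPM and held 26.9%. That is below oligodendrocyte precursor-like cells with all their cells kept. There 1 cell held 4.03 of 6.04 transcripts, so the order of these 2 classes rests on single cells. Over the 4 mixed day-60 libraries mature neuron-like cells averaged 28.1 ± 28.3 CPM, so their libraries differed by as much as the mean. Oligodendrocyte precursor-like cells had 40.005 CPM (3 of 23 cells), and 39.5 and 101 in the 2 libraries with at least 5 of them, from 1 cell each. Oligodendrocyte-like cells had 13.1 CPM (9 of 142), NSC-like cells 3.79 (11 of 660) and neuroblast-like cells 3.76 (13 of 517). Microglia-like cells had 0 in 47.

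Few cells showed more than 1 family member. Egfr was found with Erbb2 in 18 of the 47 Erbb2 cells and with Erbb4 in 17 of the 54 Erbb4 cells. Erbb3 was found with Erbb4 in 1 cell, and Erbb2 with Erbb4 in 0. A pair of rare transcripts is missed in most cells at this depth, so these counts are lower limits.

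Of the ligands that bind Egfr, 2 were abundant enough to test, and their RNA lay mostly outside the cells with most Egfr. Hbegf, the gene of HB-EGF, was at 83.7 CPM in NSC-like cells, where 187 of 660 cells had a transcript and 90 of these also had Egfr, and at 5.92 in progenitor-like and 6.07 in neuroblast-like cells. Its libraries held 51.7, 59.4, 67.1 and 39.2 CPM in Troy-GFP (54.3 ± 11.9), 43.2, 101, 83.1 and 101 in day-60 tdTomato (82.1 ± 27.3) and 4.04, 11.6, 7.23 and 12.3 in Ki67-RFP (8.79 ± 3.88). GLAST/EGF libraries held 19.0, 16.7, 17.4 and 42.2 CPM (23.8 ± 12.3), and day-2 libraries 7.92, 0, 10.8 and 7.11 (6.45 ± 4.58).

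Hbegf thus fell from Troy-GFP to Ki67-RFP by 2.69 ± 0.42 on the log2 scale (adjusted p = 4.0e-06) and rose from day 2 to day 60 by 3.76 ± 0.61 (adjusted p = 3.0e-05), with no overlap in either case. It fell by 1.25 ± 0.33 from Troy-GFP to GLAST/EGF (adjusted p = 0.0065), with 42.2 and 39.2 CPM overlapping, and the call was lost within each flow cell (-1.51, adjusted p = 0.10, and -1.06, adjusted p = 0.08). Within NSC-like cells it differed by 0.34 ± 0.24 between day 60 and Troy-GFP (adjusted p = 0.53) and by 0.06 ± 0.40 between GLAST/EGF and Troy-GFP (adjusted p = 0.99), and did not pass. Prom1/CD24 libraries ranged from 0 to 116 CPM (log2 difference from Troy-GFP -1.93 ± 0.75, adjusted p = 0.069); without the library at 116 the difference was -2.97 and passed (adjusted p = 0.014).

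Tgfa, the gene of TGF-alpha, had another distribution. It was at 120 CPM in oligodendrocyte precursor-like cells (15 of 23) and 86.4 in oligodendrocyte-like cells (49 of 142), classes in which no cell had Egfr. Mixed day-60 libraries held 40.5, 54.2, 44.8 and 64.8 CPM (51.1 ± 10.8) and day-60 tdTomato libraries 9.83, 10.3, 10.6 and 8.24 (9.74 ± 1.05), a rise of 2.13 ± 0.41 on the log2 scale (adjusted p = 0.00050). From day-60 tdTomato to the same sort Hbegf fell by 1.82 ± 0.38 (adjusted p = 0.00091; 26.1 ± 12.1 CPM in the mixed sort).

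The other ligands were rare. Egf had 38.1 transcripts in 33 cells and was highest in mature neuron-like cells (14.5 CPM). Epgn had 14 transcripts, with 8 of its 10 cells neuroblast-like, and averaged 6.89 ± 3.08 CPM in day-2 libraries. Btc had 12 and Areg 2 transcripts, and Ereg had no row. Of the neuregulins, ligands of Erbb3 and Erbb4, Nrg1 had 37.1 transcripts, most of them in neuroblast-like cells (5.49 CPM), and Nrg2 had 33.1, with 25.4 CPM in mature neuron-like cells and 11 ± 2.27 in mixed day-60 libraries. Nrg3 had 8.02 transcripts and Nrg4 had 1, and no neuregulin had enough for a test.

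**Figure D5:**
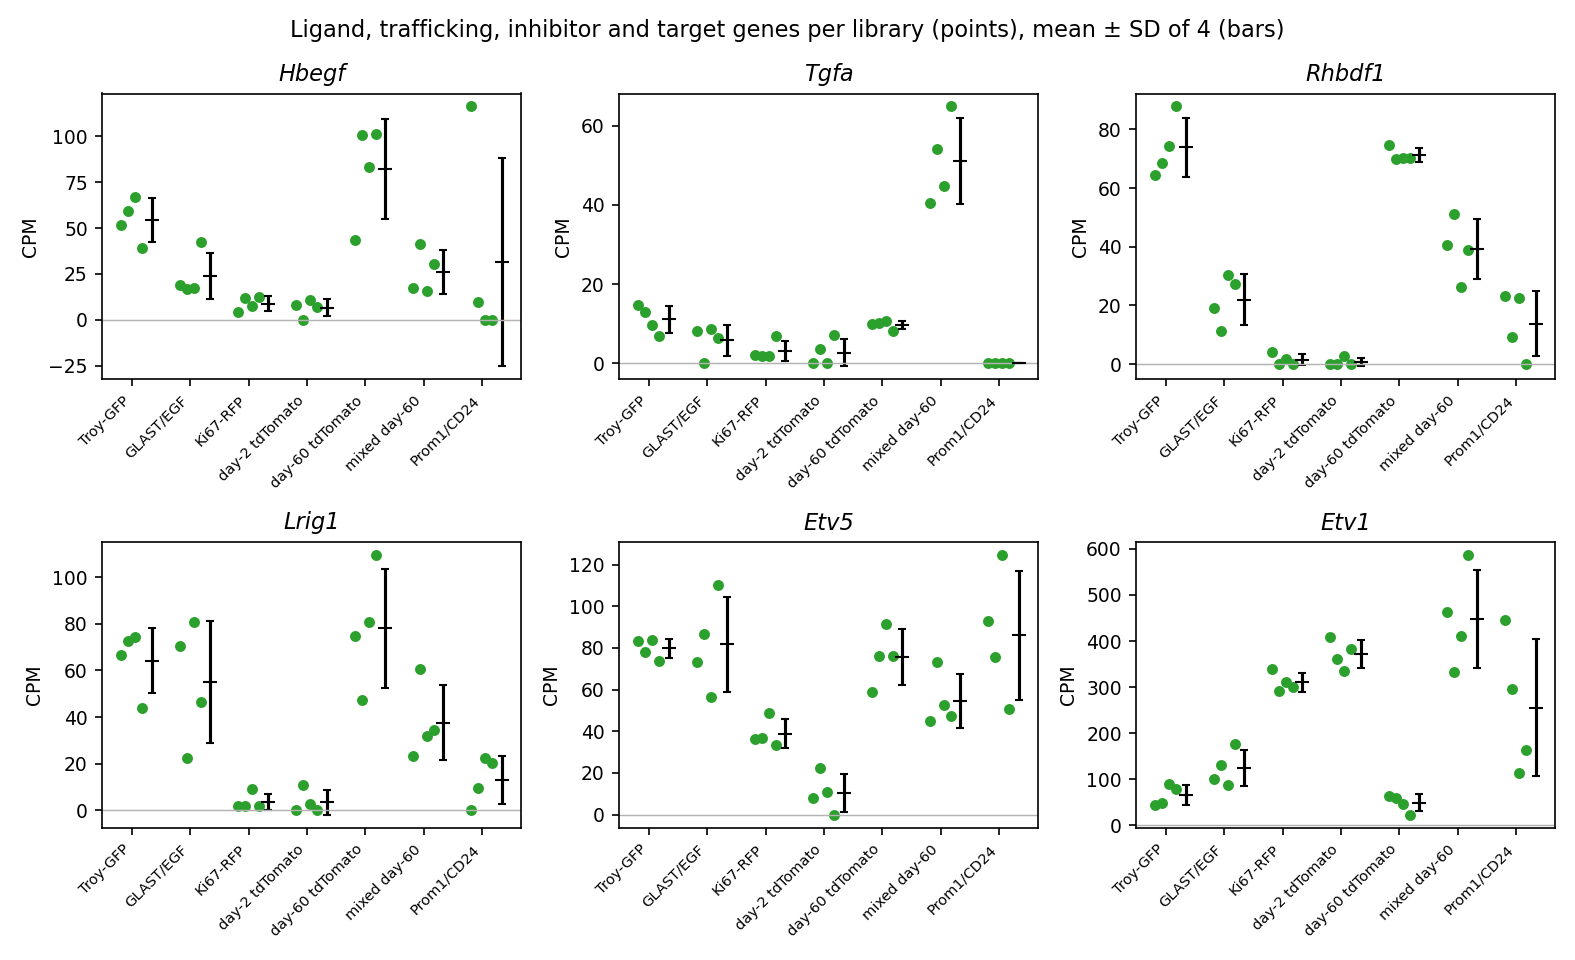
Level in CPM (linear axis, own scale per panel) of 6 genes of the pathway in every library: the ligands Hbegf and Tgfa, the ligand-traffic gene Rhbdf1, the receptor inhibitor Lrig1 and the transcription factors Etv5 and Etv1; bars are mean ± SD of 4 libraries. Rhbdf1 stood at 64.5 to 87.8 CPM in Troy-GFP and at most 4.04 in Ki67-RFP, and Etv1 took the opposite order.

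The wider pathway was followed through 77 genes in 7 lists, whose counts are set beside the shares of all tested genes that rose and fell. From Troy-GFP to Ki67-RFP 10 rose, 19 fell and 18 did not pass (all genes: 28.4% up, 31.2% down), with a median log2 difference of -0.09 against -0.02 over all genes. From day 2 to day 60, 18 rose, 12 fell and 15 did not pass (34.8% up, 32.8% down; median 0.43 against 0.01). From Ki67-RFP to day 2, 5 rose, 8 fell and 27 did not pass (14.3% up, 14.2% down; -0.18 against 0.01). The pathway genes thus passed at shares near those of all genes in these comparisons. Troy-GFP and day-60 cells were mostly NSC-like (72.8% and 82.8%), and Ki67-RFP and day-2 cells mostly neuroblast-like (79.3% and 89.4%). The first 2 comparisons therefore set much the same classes against each other in opposite order. A gene that reverses between them is not a second, separate result.

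From Troy-GFP to GLAST/EGF 8 pathway genes rose, 5 fell and 33 did not pass (14.9% up, 15.5% down; -0.05 against 0.02), and from Ki67-RFP to GLAST/EGF 9, 5 and 29 (18.9% up, 17.1% down; 0.13 against -0.01). The mixed sort against day 60 gave 19, 8 and 26 (22.2% up, 21.1% down; 0.46 against 0.00), and Prom1/CD24 against Troy-GFP 5, 4 and 31 (13.7% up, 12.3% down; 0.15 against -0.04). Within NSC-like cells 0 of 40 pathway genes passed for day 60 against Troy-GFP (1.54% up, 1.23% down) and 0 of 32 for GLAST/EGF against Troy-GFP. In neuroblast-like cells 5 rose, 5 fell and 24 did not pass from Ki67-RFP to day 2 (14.2% up, 15% down), and in progenitor-like cells 1 rose, 1 fell and 19 did not pass from Ki67-RFP to GLAST/EGF (4.43% up, 5.82% down). The counts per list that follow rest on few genes and are to be read beside these shares.

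Of the 6 genes that shed or move ligands, Rhbdf1 had the widest range. It encodes iRhom1, which carries the sheddase ADAM17 to the cell surface. Rhbdf1 was at 64.5, 68.7, 74.3 and 87.8 CPM in Troy-GFP, 74.8, 69.9, 70.2 and 70.2 in day-60 tdTomato, 4.04, 0, 1.81 and 0 in Ki67-RFP and 0, 0, 2.69 and 0 in day-2 libraries. The first 2 sorts thus stood far above the others with no overlap: it fell by 5.44 ± 0.54 on the log2 scale from Troy-GFP to Ki67-RFP (adjusted p = 2.3e-09) and rose by 5.20 ± 0.42 from day 2 to day 60 (adjusted p = 6.1e-09). It also fell by 1.75 from Troy-GFP to GLAST/EGF, by 2.27 to Prom1/CD24 and by 1.02 from day 60 to the mixed sort. Of the sheddase genes, Adam17 and Bace1 fell from Troy-GFP to Ki67-RFP (-1.08 and -0.83), and Adam17 and Adam10 rose from Ki67-RFP to day 2 (1.19 and 0.66). With Rhbdf1, 3 of 4 tested genes of the list fell in the first comparison, in which 31.2% of all genes fell. In the second 2 of 3 rose, against 14.3% of all genes. With so few genes these counts are description only. From day 2 to day 60 Rhbdf1 was the only one of 4 that rose and Adam10 (-0.72) the only one that fell, and from day 60 to the mixed sort Bace1 (1.19) and Adam17 (0.65) rose. Adam17 and Adam10 also rose from Ki67-RFP to day 2 within neuroblast-like cells (1.37 and 0.48). The call of Bace1 against Troy-GFP was lost without Ki67-RFP library 1 or 4 or Troy-GFP library 4 (down to -0.68), that of Adam17 in the mixed sort without any of 6 of the 8 libraries (down to 0.51) and that of Adam10 in neuroblast-like cells without any of 7 of 8 (down to 0.41).

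Of 19 adaptor and Ras-MAPK genes, 15 were tested from Troy-GFP to Ki67-RFP, of which 4 rose and 5 fell. The Ras genes Hras (1.09 ± 0.24, adjusted p = 0.00038) and Nras (0.94 ± 0.15, adjusted p = 4.0e-06) rose, whereas Gab1, a docking protein behind Egfr, fell (-1.62 ± 0.25, adjusted p = 4.2e-06). Hras fell again from Ki67-RFP to day 2 (-1.84) and did so within neuroblast-like cells (-2.0, from 71.5 ± 17.6 to 21.2 ± 15.5 CPM). That comparison of whole sorts had 1 gene of 15 higher, Araf (0.67), and 3 lower, with Map2k2 at -0.67 and, in neuroblast-like cells, -0.81. From day 2 to day 60, 5 of 16 rose, among them Map2k1 (1.09) and Sos2 (0.86), and 4 fell. In GLAST/EGF, Nras (0.55) rose against Troy-GFP, and against Ki67-RFP Gab1 (1.42) and the phosphatase gene Ptpn11 (0.51) rose and Hras (-0.57) fell. In the mixed sort 7 of 15 rose and 0 fell (all genes: 22.2% up, 21.1% down), led by Gab1 (1.94, from 53.5 ± 8.37 to 225 ± 30.3 CPM), Grb2 (1.62) and Mapk3 (1.59). From Troy-GFP to Prom1/CD24 Sos1 fell (-0.98).

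Several of these smaller differences hung on single libraries. Map2k2 was lost without Ki67-RFP library 3 or 4 or day-2 library 1 or 4 (down to -0.49), and in neuroblast-like cells without day-2 library 1 (-0.55). Sos2 was lost without day-2 library 1, 2 or 3 (down to 0.63). In GLAST/EGF against Troy-GFP, Nras was lost without GLAST/EGF library 3 or Troy-GFP library 1 or 3 (down to 0.41). Against Ki67-RFP, Ptpn11 was lost without GLAST/EGF library 4 or Ki67-RFP library 2, 3 or 4 (down to 0.44), and Hras without any but GLAST/EGF library 4 and Ki67-RFP library 3 (-0.44 at the least). In Prom1/CD24, Sos1 was lost without any but Prom1/CD24 library 2 (-0.88 at the least).

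In the PI3 kinase and Akt branch, regulatory subunit genes of PI3 kinase went opposite ways. Pik3r1, a regulatory subunit gene, fell from Troy-GFP to Ki67-RFP (-1.30 ± 0.19, adjusted p = 1.8e-06), while Pik3r3 (1.24 ± 0.32, adjusted p = 0.0017) and the kinase gene Akt1 (1.29 ± 0.17, adjusted p = 3.8e-07) rose; 3 of 10 tested genes rose and 2 fell. From day 2 to day 60, where the class mix was reversed too, each took the reverse direction. Pik3r1 rose by 1.5, and Pik3r3 and Akt1 fell by 1.5 and 1.04, among 3 genes up and 3 down of 10. Akt1 (0.71) and Pik3r3 (0.95) rose from Troy-GFP to GLAST/EGF, and Mtor (0.96) and Pik3r1 (0.87) rose and Akt1 (-0.62) fell from Ki67-RFP to GLAST/EGF. In the mixed sort 4 of 11 rose, among them Pik3cb (1.08) and Pik3r1 (1.00), and Akt2 fell (-1.44). Akt2 also fell from Ki67-RFP to day 2 (-0.67) and, in progenitor-like cells, from Ki67-RFP to GLAST/EGF (-1.01 ± 0.28, adjusted p = 0.026), as 1 of 5 tested genes of this branch. The Pik3r3 call in GLAST/EGF was lost without any but GLAST/EGF library 3 and Troy-GFP library 3 (down to 0.79), and Pik3cb without day-60 library 1 or 2 or mixed library 1 or 3 (down to 0.97). Akt2 was lost at day 2 without Ki67-RFP library 1 or day-2 library 2 or 3 (down to -0.53), and in progenitor-like cells without GLAST/EGF library 2 or 4 or Ki67-RFP library 1 (down to -0.87).

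Among 13 genes that hold back or degrade the receptors, Lrig1 stood out by size. Its product is a membrane protein that leads EGF receptors to degradation and is known as a stem cell marker in several epithelia. Lrig1 was at 66.5, 72.4, 74.3 and 43.8 CPM in Troy-GFP and 74.8, 47.3, 80.8 and 110 in day-60 libraries, but at 2.02, 1.94, 9.03 and 1.75 in Ki67-RFP and 0, 11.1, 2.69 and 0 in day-2 libraries. It fell by 4.17 ± 0.55 on the log2 scale from Troy-GFP to Ki67-RFP (adjusted p = 3.0e-07) and rose by 4.57 ± 0.59 from day 2 to day 60 (adjusted p = 2.0e-06). In GLAST/EGF, where Egfr was highest, Lrig1 was 3.75 ± 0.75 above Ki67-RFP (adjusted p = 0.00032; 70.6, 22.3, 80.7 and 46.5 CPM), and no gene of the list passed against Troy-GFP (0 of 6).

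Other inhibitors moved less. Lrig2 (-0.82) fell from Troy-GFP to Ki67-RFP, and the ubiquitin ligase genes Cblb and Rnf41, the latter acting on Erbb3, rose from Ki67-RFP to day 2 (0.84 and 0.91) and fell from there to day 60 (-1.43 and -0.98). Both also rose in neuroblast-like cells (1.02 and 1.10). Cbl, another ligase that marks Egfr for degradation, rose from Ki67-RFP to GLAST/EGF (1.41, from 12.2 ± 1.54 to 33.5 ± 5.32 CPM). In the mixed sort the phosphatase gene Ptprj rose (1.32) and Lrig1 fell (-1.25), 2 of 9 tested, and in Prom1/CD24 Lrig1 fell (-1.88), 1 of 3. Lrig2 was lost without Ki67-RFP library 3 or Troy-GFP library 2, 3 or 4 (down to -0.47), Cblb at day 2 without Ki67-RFP library 4 or day-2 library 2 (down to 0.70) and in neuroblast-like cells without Ki67-RFP library 4 (0.71), and Lrig1 in Prom1/CD24 without Prom1/CD24 library 1 or 2 (-1.71 and -1.73).

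The last list held 17 genes that Ras-MAPK signals are known to switch on, many of them feedback inhibitors. From Troy-GFP to Ki67-RFP, 6 of 10 tested genes fell, among them Phlda1 (-3.10 ± 0.59, adjusted p = 5.8e-05), the Sprouty gene Spry4 (-2.53 ± 0.59, adjusted p = 0.00054), Spry2, Spred1, Dusp6 and Etv5. Etv1, Ccnd1 and Egr1 rose, so the list did not go 1 way. Etv1, a transcription factor gene, was at 44.3, 48.3, 89.2 and 78.8 CPM in Troy-GFP and 339, 291, 311 and 299 in Ki67-RFP, a rise of 2.22 ± 0.18 (adjusted p = 8.8e-11).

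From day 2 to day 60, 6 of 8 rose, led by Phlda1 (3.73) and the related factor gene Etv5 (3.35, from 10.2 ± 9.20 to 75.7 ± 13.3 CPM), and Etv1 (-2.81) and Egr1 fell. The immediate early gene Fos (-1.54), the cyclin gene Ccnd1 (-2.39), Etv5 (-2.24) and Egr1 fell from Ki67-RFP to day 2, 4 of 8 with 0 higher (all genes: 14.3% up, 14.2% down). Fos (-0.97) and Egr1 (-0.65) did so in neuroblast-like cells. In GLAST/EGF against Troy-GFP, Egr1 rose (1.47 ± 0.19, adjusted p = 7.4e-06; 706 ± 174 against 234 ± 52.4 CPM) with Ccnd1, Etv1 and Fos, and Spry4 (-1.76), Phlda1 (-1.48) and Spry2 fell. Against Ki67-RFP, Spred1 (1.52), Etv5 (1.03) and Fos rose and Etv1 (-1.36) fell. In progenitor-like cells Fos was the only gene of 6 that passed, at 1088 ± 341 CPM in GLAST/EGF against 582 ± 239 in Ki67-RFP (0.99 ± 0.27, adjusted p = 0.020). It was lost without GLAST/EGF library 2 (0.92) or Ki67-RFP library 3 (0.63), and Phlda1 in GLAST/EGF without GLAST/EGF library 3 (-1.29).

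In the mixed sort Etv1 (3.15), Ccnd1 (1.13), Egr1 and Phlda1 rose and Spry2 (-1.48), Etv5 and Spred1 fell, 7 of 12. Ccnd1 there was lost without day-60 library 1, 2 or 4 or mixed library 1 or 2 (down to 0.79). In Prom1/CD24 against Troy-GFP, Ier3 (2.18), Etv1 (1.69), Egr1 (1.52) and Fos rose and Spred1 fell, 5 of 9; within the shared flow cell Etv1 no longer passed (1.05, adjusted p = 0.067). Of the 8 pathway genes given by value for GLAST/EGF against Troy-GFP, Rhbdf1 and Egr1 passed within both flow cells.

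Genes whose level followed a member most closely over the 28 libraries were ranked by Pearson's r of log2(CPM + 10) among 8392 genes with a mean of at least 20 CPM. For Egfr these were Msi2 (0.90), Cecr2 (0.86), Pou2f1 (0.85), Notch1 (0.83) and Bclaf1 (0.83), for Erbb2 Ppp1r3c (0.81), Col1a2 (0.79), Colec12 (0.79), Boc (0.78) and Efemp1 (0.78), and for Erbb4 P4htm (0.75), Pnmal2 (0.73), Fam20c (0.72), Atp2b2 (0.71) and Lrp1b (0.71). Msi2 encodes an RNA-binding protein and Notch1 a receptor, both known from neural stem and progenitor cells, and Col1a2 encodes a collagen chain of fibroblasts. Libraries of a sort share cells of the same kind, and the ranking moves with its settings: with a pseudocount of 1, 2 of the 5 genes for Egfr, 3 for Erbb2 and 0 for Erbb4 were ranked among the first 5 again. Erbb3 had a median of 0 transcripts per library and was not ranked.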

How the data were processed

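The 28 SORT-seq libraries were read in pairs; BWA (0.6.2-r126) and the build mm10 are named for the alignment, per the submitters' processing notes. The deposited tables hold estimated transcripts per gene and well, not whole counts: of 4801006 values above 0, all but 11 equal a count of 256 random barcodes corrected for chance reuse (tolerance 1e-06). The test was therefore limma voom, and edgeR and DESeq2 were not used. Wells with at least 1000 transcripts were kept as cells; each well was sorted as a single cell and no doublet caller was run. All libraries use the same 96 well barcodes, so barcodes do not tell libraries apart. No column of per-sample values lacked a sample.

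Transcripts were summed per library, or per library and class with at least 5 cells, and given as CPM, transcripts per 1000000 of the cells summed. Genes passed a filter of 10 transcripts (15 in total), and limma 3.58.1 in R 4.3.3 with TMM factors gave log2 differences in 11 comparisons, with Benjamini-Hochberg adjusted p-values over all tested genes and a threshold of 0.05. Erbb2, Erbb3 and Erbb4, mostly under the filter, were compared by exact permutation tests on CPM. Clusters came from 2000 variable genes without the 4 receptors, 30 components, 15 neighbours and Leiden resolution 1 (scanpy 1.11.5, Python 3.11.15), and a class name needed 3 markers. Intervals are exact (Clopper-Pearson) at 95%, the limit for a count of 0 is 3 transcripts or cells, and both cover counting error only. On simulated data for GLAST/EGF against Troy-GFP with 7818 genes, 51 of 100 changes of 2-fold and 97 of 100 of 4-fold were called, with 5 of 7618 unchanged genes. The simulation took its means from these libraries, but every gene had the same set negative binomial spread, not estimated from them. Its rates therefore need not hold for the real comparisons.

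The members and the 7 lists of 77 pathway genes were chosen with earlier results of these data known. Named by rule were all members, every tested ligand, per list and comparison the 3 genes with the largest difference among those that passed, and the 5 genes most like each member; other genes named without a value only fill out counts. Some genes that the rule or the marker lists hold are not reported here by name. Alternatives changed scaling, filter, depth, minimum transcripts, resolution, flow cell, replicate block and single libraries. Added after the data were seen were scaling factors from all genes, the other flow cell alone, class levels by library, NSC-like cells without the Lypd8 cluster, and class levels without 1 cell (Erbb4) or 1 library (Erbb2).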

Additional observations from a re-analysis of the deposited data

Results flagged for a closer look

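Among 39 groups of 4 libraries with at least 3 transcripts of the gene in all, 3 held 1 library far from the other three, by a gap past Dixon's 95% critical value for the whole range; chance marks about 1 group in 20, a rate for continuous values that was not tested for counts this low. Egfr was at 78.9 CPM in endothelial-like cells of Troy-GFP library 1 and at 0 in the other libraries of that group. Egfr was at 73.6 CPM in unnamed cells of mixed day-60 library 4 and at 0 in the others. Erbb4 was at 21.2 CPM in progenitor-like cells of GLAST/EGF library 4 and at 0 in the others. With all other libraries at 0 the gap equals the whole range whatever the level, so the rule marks every such group. The levels in these groups rest on few transcripts. The rule therefore cannot decide whether these libraries are outlying.

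Of the 899 wells below the minimum of 1000 transcripts, which entered no comparison, 7 held Egfr, with 7.01 transcripts in all, or 29.2 CPM of their 240182 transcripts.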

How the results depend on the processing

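Egfr kept its direction and its side of the threshold under every alternative that could be fitted in Ki67-RFP against Troy-GFP (-1.16 to -0.94), GLAST/EGF against Troy-GFP (0.68 to 1.25) and progenitor-like cells (1.25 to 1.55). The rise from day 2 to day 60 was lost without scaling beyond totals (0.44), without a filter (0.49), with factors from all genes (0.46) and at a minimum of 2000 transcripts (0.54), and ran from 0.29 to 0.75 with single libraries left out. Prom1/CD24 against Troy-GFP was lost within flow cell HVJH2BGXX (-2.45). In NSC-like cells Egfr turned to -0.30, -0.22 and -0.25 (day 60 against Troy-GFP) at a minimum of 500 or 2000 transcripts and at resolution 0.5. GLAST/EGF against Troy-GFP there passed without a filter (0.90), at a minimum of 500 (1.04) or 2000 (1.17) and at resolution 0.5 (1.11), and Hbegf turned to -0.23 without a filter, -0.065 with factors from all genes, -0.55 and -0.52 at those minimums, -0.54 at resolution 0.5 and -0.54 without GLAST/EGF replicate 4 (up to 0.26 with other libraries left out). The cause was not tested.

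Counts of genes past the threshold, in the order of the comparisons in the report, were 5005, 5168, 1982, 2379, 2806, 3528, 1477, 178, 0, 1785 and 310. With cells thinned to 1000 transcripts, which leaves fewer genes to test, they were 1149, 1228, 458, 269, 645, 1003, 308, 26, 2, 380 and 24, and Egfr could be tested in GLAST/EGF against Troy-GFP and against Ki67-RFP alone. Within HVJH2BGXX, with fewer libraries, they were 1024 (GLAST/EGF against Troy-GFP; 1328 within AHY73KBGXX), 779 (Prom1/CD24), 110 (NSC-like, day 60) and 109 (progenitor-like). Prom1/CD24 gave 4581 without a filter and 958 to 1536 with single libraries left out. NSC-like cells at day 60 gave 436 at a minimum of 500, 334 at resolution 0.5 and 106 to 161 with single libraries left out. NSC-like GLAST/EGF against Troy-GFP gave 530 without a filter, 3 with factors from all genes, 35 and 171 at minimums of 500 and 2000, 125 at resolution 0.5 and 0 to 4 with single libraries left out. Neuroblast-like cells gave 914 at a minimum of 2000, and progenitor-like cells 103 at a minimum of 500, 159 and 164 at resolutions 0.5 and 2.0, and 111 to 258 with single libraries left out.

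Over 98 results of named genes, 1392 of 1559 alternative values kept direction and side, 158 lost and 3 gained the threshold and 6 turned. Replicate numbers only name libraries: 0 of 44 same-numbered pairs correlated above 0.1 (-0.0799 to 0.069). With a replicate block Egfr was at -1.09 (Ki67-RFP against Troy-GFP), 0.55 (day 60 against day 2) and 0.86 (GLAST/EGF against Troy-GFP), no Egfr call changed, and the first count was 4925. Exact tests with 1 library left out cannot go below 0.0571. The planned edgeR and DESeq2 fits were not run, since the values are not counts. Depth limits what can be said of Erbb2, Erbb3 and Erbb4.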

Other observations

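Egfr was also read by sort within each NSC-like cluster, without a test. In the cluster led by Thbs4 and C4b, Egfr was at 301 CPM in GLAST/EGF cells against 83.8 in Troy-GFP and 103 in day-60 cells, and in the cluster led by Tril at 325 against 121 and 142. In the largest cluster, led by Crym and Clu, the same sorts stood at 125, 104 and 111 CPM. In the cluster led by Agt and Islr the order was another, with 138 CPM in GLAST/EGF (14 cells), 215 in Troy-GFP (8 cells) and 197 in day-60 cells (33 cells). Erbb2 was at 23.8 CPM in the Thbs4 cluster and 5.32 in the Crym cluster. These are sums over cells of all libraries and have no replicate check. The Thbs4 and Tril clusters held 17 and 19 GLAST/EGF cells, a sort taken in part for binding EGF.

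Ligand and receptor RNA met in the same cell mostly in the NSC-like class. Tgfa was found in 33 NSC-like cells, 19 of which also held Egfr, and in 3 progenitor-like cells, all 3 with Egfr. Among all 660 NSC-like cells 255 held Egfr, and among the 187 with Hbegf 90 did. Of the few progenitor-like cells with Hbegf, 8 of 9 held Egfr, close to the 83.5% of all progenitor-like cells that did. Of 18 neuroblast-like cells with Hbegf 6 did, against 114 of all 517. Depth was not set equal in these counts.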
